A study of Mus musculus with 8 samples.

Results

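The kinesin motor genes described here are those whose platform annotation gives a single symbol made of Kif and a digit, which leaves out Kifap3 and the Kifc genes. The rule found 38 of the 19938 genes named on the array, measured with 44 probe sets. For the 6 genes with more than 1 probe set, the brightest by its mean over the 8 samples was used, so the mean level chose the probe set and is not a result. The 38 comprise 11 mitotic genes, 13 transport genes, 6 genes of the cilium or Hedgehog signalling and 8 others, of which Kif4-ps is a transcribed pseudogene. This grouping, and the contrast of mitotic with transport genes, was made with earlier results of these data known, so that contrast is given as a description without a test. Tests of single genes were adjusted over all 19938 genes.

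Kinesins are motor proteins that bind microtubules and turn the hydrolysis of ATP into movement or into the loss of tubulin from microtubule ends. Mitotic kinesins build the spindle, align chromosomes and organise the midzone for cytokinesis, and their transcripts are known to be most abundant late in the cell cycle of dividing cells. Transport kinesins carry vesicles, mitochondria and other cargo toward microtubule plus ends, in dividing and resting cells alike. A further group works in or at the primary cilium.

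RNA came from primary cultures of mouse embryonic fibroblasts, connective tissue cells grown out of embryos, of 2 lines named line A (MEF10) and line B (MEF16). Each line was sampled without tamoxifen, when the labels call the cells PKM2 expressing, and with tamoxifen, when they call them PKM1 expressing; PKM2 and PKM1 are isoforms of pyruvate kinase, the enzyme of the last step of glycolysis. Each of the 4 groups held 2 samples, 1 Affymetrix array each. The labels used here give no allele, Cre driver, tamoxifen dose, exposure time or passage, nor whether the samples within a group came from separate cultures; the p-values measure only how far these samples lie apart, which could be technical. Tamoxifen was given to all PKM1 samples and to no PKM2 sample, so the drug and the isoform cannot be told apart. Some label fields name mammary tumors. The 10 fibroblast markers averaged between 8.13 and 13.04 on the log2 scale of the table and the 9 epithelial and mammary markers between 5.70 and 7.61, where the median of all genes was 7.34. The highest means among macrophage, endothelial, neural and skeletal muscle markers were 8.40, 7.27, 9.02 and 8.95, so some overlapped the fibroblast range. Without detection calls these levels do not show absence. Values are log2 expression values, so that a difference of 1 is a doubling, and differences are tamoxifen minus no tamoxifen unless stated otherwise.

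The samples of line B lay further apart than those of line A. Over the 11 mitotic kinesin genes the median difference between the samples of a group was 0.11 in line A without tamoxifen, 0.02 in line A with it, 0.24 in line B without and 0.34 in line B with it. Over all genes these medians were 0.11, 0.08, 0.15 and 0.15. Within groups, 61.8% of the variation over all genes lay along a single component, which set line B PKM2 replicate 1 and line B PKM1 replicate 2 against the other line B samples. Results were therefore also computed without these arrays.

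With tamoxifen, 5 of the 38 kinesin genes fell, 0 rose and 33 did not pass in the limma fit over both lines. The background over all genes was 1.32% in either direction, 0.512% lower and 0.808% higher. All of the 5 are mitotic kinesins, Kif15, Kif23, Kif2c, Kif11 and Kif14, which were between 29.7% and 33.6% lower on the linear scale. The median change was -0.45 over the 11 mitotic genes, 0.08 over the 13 transport genes, 0.02 over the 6 cilium genes and -0.04 over the 8 others, beside -0.01 over all genes. In the plot of all 38 changes with their intervals, the 11 genes classed as mitotic lie to the left of every other kinesin gene. This depends on the grouping. Kif2a and Kif2b, placed among the others, had differences of 0.03 and 0.02. With both in the mitotic class the separation does not hold, and the class median was -0.43.

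**Figure D1:**
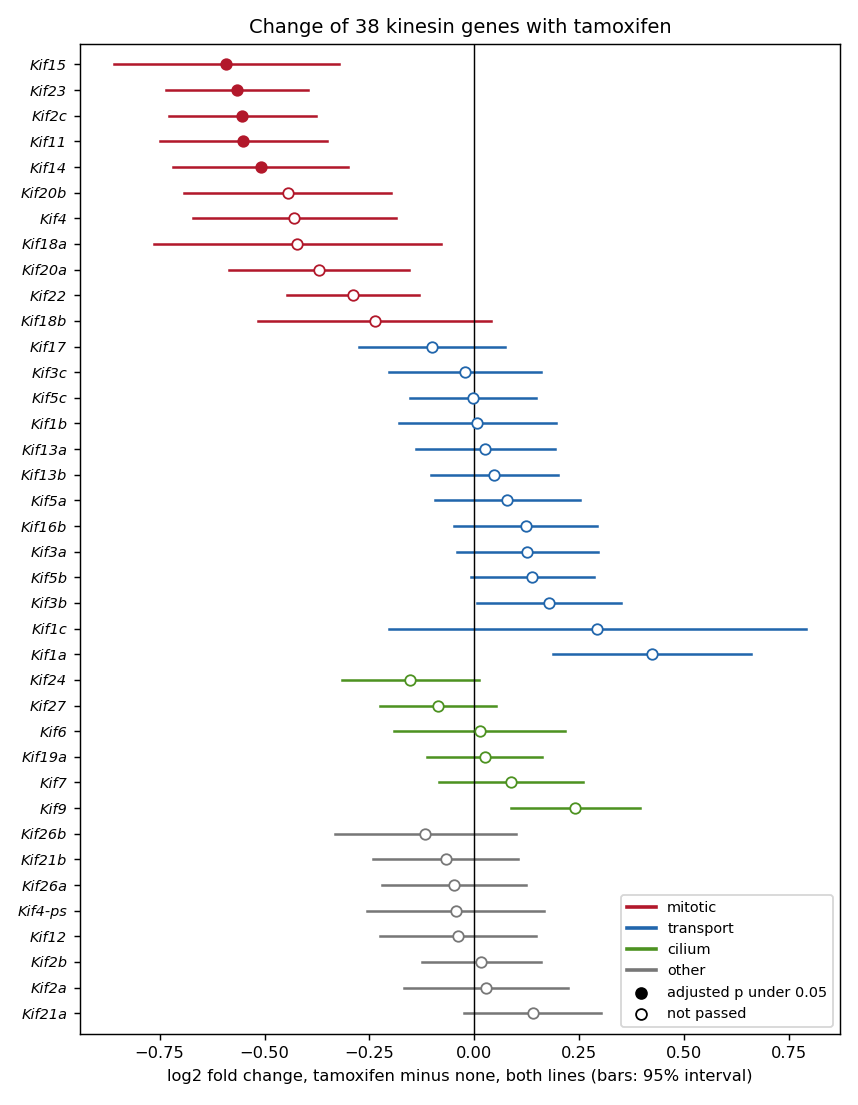
Log2 fold change of each of the 38 kinesin genes (x axis, tamoxifen minus none, fit over both lines, n = 8 samples), 1 row per gene, grouped by class; points are estimates, bars 95% intervals, and filled points passed an adjusted p of 0.05. The 11 mitotic genes lie between -0.59 and -0.24, and the other 27 between -0.15 and 0.42.

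Kif15, a motor that helps to keep the spindle bipolar beside Kif11, was at 8.39 and 8.69 without and 7.76 and 7.79 with tamoxifen in line A, and 8.71 and 8.43 without and 7.94 and 8.35 with tamoxifen in line B. The 4 samples with tamoxifen lay below all 4 without. The narrowest margin was between 8.39 without tamoxifen in line A and 8.35 with it in line B. The log2 fold change of Kif15 was -0.59 (SE 0.12, n = 8 samples, limma adjusted p = 0.045). Kif23, the motor of the centralspindlin complex that organises the midzone for cytokinesis, was at 10.10 and 10.17 without and 9.52 and 9.49 with tamoxifen in line A, and 10.31 and 10.10 without and 9.61 and 9.80 with tamoxifen in line B. Its groups did not overlap in either line, and the fall was -0.57 (SE 0.08, adjusted p = 0.0070 in limma).

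Kif2c, which removes tubulin from microtubule ends at centromeres and so helps to correct wrong attachments, was at 8.83 and 8.87 without and 8.29 and 8.29 with tamoxifen in line A, and 8.84 and 8.94 without and 8.51 and 8.18 with tamoxifen in line B. The change was nearly equal in both lines, -0.56 in line A and -0.55 in line B, and -0.55 over both (SE 0.08, limma adjusted p = 0.0091). Kif11, the motor that slides antiparallel microtubules apart to separate the spindle poles, was at 10.18 and 10.24 without and 9.50 and 9.51 with tamoxifen in line A, and 10.18 and 9.94 without and 9.56 and 9.75 with tamoxifen in line B. It fell by 0.55 on the log2 scale (SE 0.09, limma adjusted p = 0.017). Kif14, a motor needed late in cytokinesis, was at 8.79 and 8.68 without and 8.14 and 8.05 with tamoxifen in line A, and 8.89 and 8.73 without and 8.26 and 8.60 with tamoxifen in line B, a change of -0.51 (SE 0.09, limma adjusted p = 0.029). A second Kif14 probe set, at a mean of 4.76, showed a difference of -0.01, and with the mean of both probe sets Kif14 did not pass (-0.26).

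The other 6 mitotic kinesins had lower means with tamoxifen in both lines and did not pass, with adjusted p between 0.10 and 0.61 in limma. Kif22, a motor that binds chromosome arms, was at 7.65 and 7.71 without and 7.34 and 7.33 with tamoxifen in line A, and 7.71 and 7.66 without and 7.56 and 7.34 with tamoxifen in line B. Its samples did not overlap between the conditions (difference -0.29, SE 0.07). Kif20b, which acts in cytokinesis, was at 9.55 and 9.75 without and 9.04 and 9.21 with tamoxifen in line A, and 9.77 and 9.48 without and 9.04 and 9.48 with tamoxifen in line B. Kif4, a chromosome-bound motor that works with Prc1 at the midzone, was at 9.27 and 9.44 without and 8.84 and 8.85 with tamoxifen in line A, and 9.58 and 9.13 without and 8.85 and 9.16 with tamoxifen in line B. For both, line A was separated and line B was not, with differences over both lines of -0.45 (SE 0.11) and -0.43 (SE 0.11).

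Kif18a, which dampens chromosome movements at the metaphase plate, was at 9.18 and 9.43 without and 8.75 and 8.73 with tamoxifen in line A, and 9.39 and 8.80 without and 8.53 and 9.11 with tamoxifen in line B, and its line B samples overlapped widely. Kif20a, which carries the chromosomal passenger complex to the midzone, was at 9.59 and 9.53 without and 9.10 and 9.04 with tamoxifen in line A, and 9.38 and 9.49 without and 9.39 and 8.98 with tamoxifen in line B. In line B its replicate 1 with tamoxifen lay between the samples without. Kif18b, which shortens astral microtubules, was at 7.83 and 7.60 without and 7.54 and 7.39 with tamoxifen in line A, and 7.56 and 8.03 without and 7.80 and 7.34 with tamoxifen in line B. The differences were -0.42 (SE 0.15), -0.37 (SE 0.10) and -0.24 (SE 0.125), and the 95% interval reached above 0 for Kif18b alone among the 11 (-0.51 to 0.04).

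**Figure D2:**
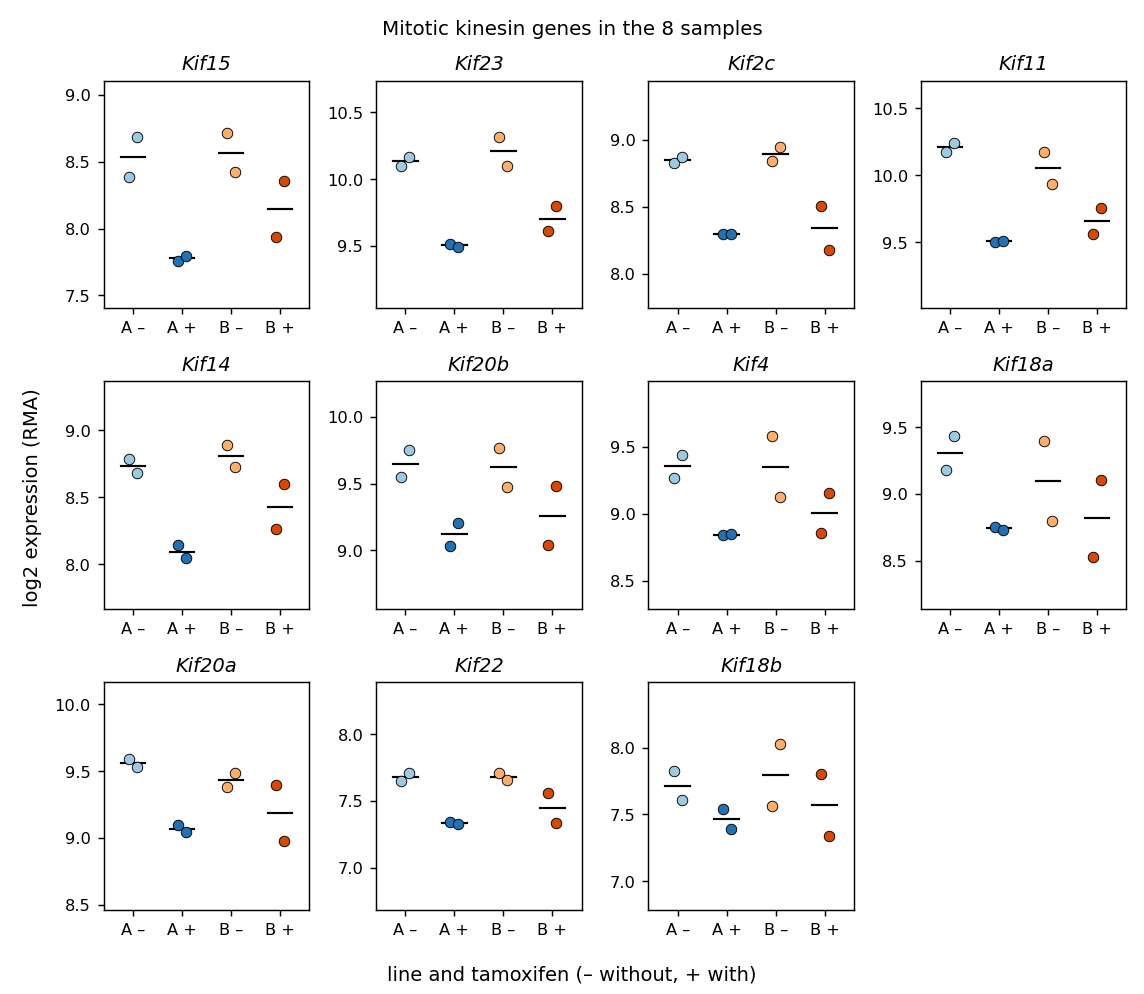
Log2 expression (y axis, RMA, the same span in each panel) of the 11 mitotic kinesin genes in the 8 samples, by line (A, B) and without (–) or with (+) tamoxifen; points are samples and lines group means (n = 2 each). The line A samples with tamoxifen lie below those without in all 11 panels, and in line B they do so in 6.

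In 6 of the 11 mitotic genes the 4 samples with tamoxifen lay wholly below the 4 without, where 2.74% of all genes were separated in this way. In line A all 11 were separated downward, beside 26.2% of all genes, and in line B 6 of 11, beside 12.9%. At an unadjusted p under 0.05 in limma, 10 of the 11 were lower over both lines, where 4.32% of all genes were. All 11 were lower in both lines, as were 33.2% of all genes.

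The count of 5 rested on single arrays. It was 2 without line A PKM2 replicate 1, 1 without line A PKM2 replicate 2, 1 without line A PKM1 replicate 1, 0 without line A PKM1 replicate 2 and 3 without line B PKM2 replicate 1, and between 5 and 7 without any other array. Over all genes, 102 were called lower with all arrays, and in the first 4 of these fits 32, 23, 19 and 13, so calls were lost across the array. Without line B PKM2 replicate 1 it was 95. The median of the mitotic genes stayed between -0.55 and -0.39 in these fits. Leaving out both line B PKM1 replicate 1 and line B PKM2 replicate 2, or the 2 other line B arrays, left 1 sample in each line B group. The spread within line B was then not measured. The counts of these fits are therefore only listed among the alternatives below, and no conclusion is drawn from them. The median of the mitotic genes was -0.48 and -0.50 in these fits.

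Promoters are shown because all of the 5 kinesin genes that fell are of the mitotic class, whose genes are known to be transcribed late in the cell cycle. Motifs are known from genes expressed in late cell cycle phases, the CHR (cell cycle genes homology region, searched as TTTGAA and TTCGAA) and the CCAAT box (searched as CCAAT), and E2F sites (searched as TTTGGCGC and also as TTTCCCGC or as TTTCGCGC or as TTTGCCGC) are known from genes of DNA replication. Both strands of the RefSeq windows on GRCm38.p6, from 250 bases before to 50 bases after the transcript start, were searched. RefSeq windows matched 31 of the 38 genes, with 35 windows; the 7 genes without one are Kif5a, Kif5b, Kif13b, Kif19a, Kif20a, Kif21b and Kif4-ps. Printed are the 110 bases before the start and the first 25 transcribed bases, 5′ to 3′ on the gene's strand, with motif matches in capitals (a match on the other strand appears as its reverse complement). The first 7 genes have a CHR match close to the start, and Kif18a is the mitotic gene whose window holds none. Kif14 and Kif2c, whose CHR matches lie further from the start, are not printed. Kif3a and Kif1c are transport genes set beside the mitotic ones, and their RefSeq starts lie 1668 and 152 bases inside the annotated gene.
Kif11: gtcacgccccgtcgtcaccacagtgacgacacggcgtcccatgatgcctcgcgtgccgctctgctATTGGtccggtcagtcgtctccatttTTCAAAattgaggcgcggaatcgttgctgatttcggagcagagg
Kif15: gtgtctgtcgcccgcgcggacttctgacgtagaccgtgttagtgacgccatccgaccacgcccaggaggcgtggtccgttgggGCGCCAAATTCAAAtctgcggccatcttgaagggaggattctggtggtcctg
Kif22: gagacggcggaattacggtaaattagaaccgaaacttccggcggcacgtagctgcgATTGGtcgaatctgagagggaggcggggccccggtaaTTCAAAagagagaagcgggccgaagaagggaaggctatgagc
Kif23: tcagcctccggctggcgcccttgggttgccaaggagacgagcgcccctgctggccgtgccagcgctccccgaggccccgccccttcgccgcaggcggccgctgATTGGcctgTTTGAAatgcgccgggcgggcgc
Kif4: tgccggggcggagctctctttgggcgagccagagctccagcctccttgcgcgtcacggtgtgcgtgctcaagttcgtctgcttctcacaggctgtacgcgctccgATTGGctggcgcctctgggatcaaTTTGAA
Kif18b: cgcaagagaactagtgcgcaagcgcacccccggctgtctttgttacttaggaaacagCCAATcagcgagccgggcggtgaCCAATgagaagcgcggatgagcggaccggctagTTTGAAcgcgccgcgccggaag
Kif20b: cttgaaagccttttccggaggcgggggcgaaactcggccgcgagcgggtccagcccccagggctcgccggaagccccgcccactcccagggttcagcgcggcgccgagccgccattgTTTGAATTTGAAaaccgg
Kif18a: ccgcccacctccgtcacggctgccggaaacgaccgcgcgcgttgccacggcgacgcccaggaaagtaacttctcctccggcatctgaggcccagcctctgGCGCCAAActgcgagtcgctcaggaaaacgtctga
Kif3a: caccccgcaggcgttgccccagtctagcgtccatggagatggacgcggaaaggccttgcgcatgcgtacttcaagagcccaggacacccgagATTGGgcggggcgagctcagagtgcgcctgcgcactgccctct
Kif1c: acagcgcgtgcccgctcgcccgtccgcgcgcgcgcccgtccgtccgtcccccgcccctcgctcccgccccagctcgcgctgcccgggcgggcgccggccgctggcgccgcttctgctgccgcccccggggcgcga

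The windows lie at chr19:37376272-37376406 on the plus strand for Kif11, chr9:122950971-122951105 on the plus strand for Kif15, chr7:127042396-127042530 on the minus strand for Kif22, chr9:61946775-61946909 on the minus strand for Kif23, chrX:100625955-100626089 on the plus strand for Kif4, chr11:102925100-102925234 on the minus strand for Kif18b and chr19:34922248-34922382 on the plus strand for Kif20b. The last 3 lie at chr2:109280628-109280762 on the plus strand for Kif18a, chr11:53567259-53567393 on the plus strand for Kif3a and chr11:70700438-70700572 on the plus strand for Kif1c. A CHR match was present in 9 of the 10 mitotic windows, all but that of Kif18a, where 19.2% of all 32851 windows of this length hold one. Among the transport genes 1 of 12 windows had a match, in a Kif1a window whose start lies 19559 bases inside the annotated gene. Among the cilium genes 2 of 6 had one (Kif24 and Kif27), and among the others 1 of 7 (Kif26b). The start of the Kif27 window lies 9798 bases inside the annotated gene. In Kif11, Kif15 and Kif22 the match nearest the start lay on the strand opposite the gene and began 19, 19 and 17 bases before the start. In Kif23, Kif18b, Kif20b and Kif4 the first began at transcribed base 3, 4, 8 and 20. Within 30 bases before the start and the first 25 transcribed bases, bounds set after the matches were seen, 7 of 10 mitotic, 0 of 12 transport, 1 of 6 cilium (Kif24) and 1 of 7 other windows (Kif26b) had a match, beside 2.92% of all windows.

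The matches of Kif14 and Kif2c lay further out, beginning 228 and 103 bases before the start, but the RefSeq start of these windows lies 1547 and 3852 bases inside the annotated gene. A CCAAT match was present in 6 of 10 mitotic windows and 4 of 12 transport windows, beside 37.4% of all windows. An E2F match was present in 2 of 10 mitotic windows and 0 of 12 transport windows, beside 2.26% of all. In Kif15 the E2F match ends where the CHR match begins, and in Kif18a the E2F match begins 10 bases before the start. Matches are letters in a window and show no binding; CHR matches were present both among the mitotic genes that fell and among those that did not pass. The map of match positions shows the cluster at the start of the mitotic genes.

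**Figure D3:**
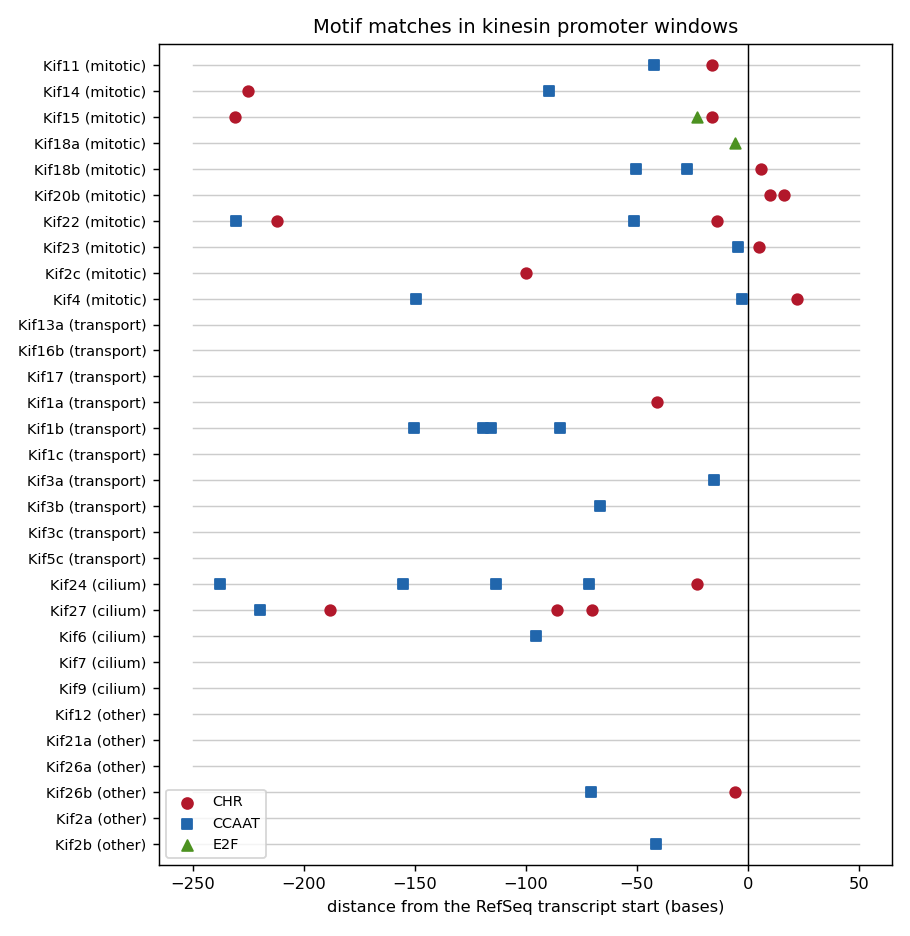
Matches to CHR (circles), CCAAT (squares) and E2F (triangles) motifs on either strand, by distance from the RefSeq transcript start in bases (x axis), in the windows of 31 kinesin genes (rows; several windows of a gene share a row). CHR matches of 7 of 10 mitotic genes lie between 30 bases before and 25 bases after the start, as do matches of Kif24 and Kif26b and those of 0 transport genes.

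Transport kinesins did not pass in either direction. The mean levels of 4 of the 13 lay below the median of all genes, as did those of 0 of the 11 mitotic genes. Without detection calls, some of these 4 may not have been detected. Of the 13, 10 had a higher and 3 a lower mean with tamoxifen over both lines, with adjusted p between 0.11 and 0.99 in limma, and 2 of 13 were higher at an unadjusted p under 0.05, beside 5.53% of all genes. Kif5b, the conventional kinesin heavy chain made in most cells, was at 11.57 and 11.60 without and 11.69 and 11.70 with tamoxifen in line A, and 11.62 and 11.47 without and 11.66 and 11.77 with tamoxifen in line B. All 4 samples with tamoxifen lay above the 4 without, in a single transport gene of the 13 and in 2.56% of all genes, and the difference was 0.14 (SE 0.07, 95% interval -0.01 to 0.28, adjusted p = 0.55 in limma). Its relatives Kif5a and Kif5c, known from neurons, had differences of 0.08 (SE 0.08) and -0.0037 (SE 0.07).

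Kif1a, a motor of synaptic vesicle precursors in neurons, had the largest difference of the 27 kinesin genes outside the mitotic class. It was at 8.72 and 8.47 without and 9.12 and 8.98 with tamoxifen in line A, and 8.84 and 9.04 without and 9.55 and 9.10 with tamoxifen in line B. The samples with tamoxifen were higher within each line but overlapped across the lines, and the difference of 0.42 (SE 0.11, 95% interval 0.19 to 0.66) did not pass (limma adjusted p = 0.11). It passed with array weights, and its difference lay between 0.34 and 0.52 over the alternative fits. The 3 other fits in which it passed left a line B group unreplicated.

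Kif1c, a motor of vesicles and messenger RNA, was at 10.24 and 10.69 without and 10.81 and 10.82 with tamoxifen in line A, and 10.80 and 9.84 without and 10.12 and 11.003 with tamoxifen in line B. Its line B samples spanned more than those of any other kinesin gene, so its difference of 0.29 had an SE of 0.22. A second Kif1c probe set was steadier, between 9.07 and 9.12 without and between 9.17 and 9.25 with tamoxifen, and differed by 0.12. Kif1b, known for transport of mitochondria and synaptic vesicle precursors, was at 9.83 and 9.72 without and 9.89 and 9.82 with tamoxifen in line A, and 9.82 and 10.05 without and 10.001 and 9.75 with tamoxifen in line B, a difference of 0.01 (SE 0.08) that turned to -0.02 after quantile normalization again.

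Kif3a, which forms the heterotrimeric kinesin-2 motor with Kif3b and serves intraflagellar transport in cilia, was at 9.31 and 9.50 without and 9.55 and 9.62 with tamoxifen in line A, and 9.55 and 9.33 without and 9.52 and 9.50 with tamoxifen in line B. The difference was 0.13 (SE 0.08), and that of Kif3b 0.18 (SE 0.08, 95% interval 0.01 to 0.35); both were separated upward in line A and overlapped in line B. For Kif3c, Kif13a, Kif13b, Kif16b and Kif17, differences lay between -0.10 and 0.12. In line A, 7 of 13 transport genes were separated upward, beside 21.3% of all genes, and in line B 2 of 13, beside 12%.

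**Figure D4:**
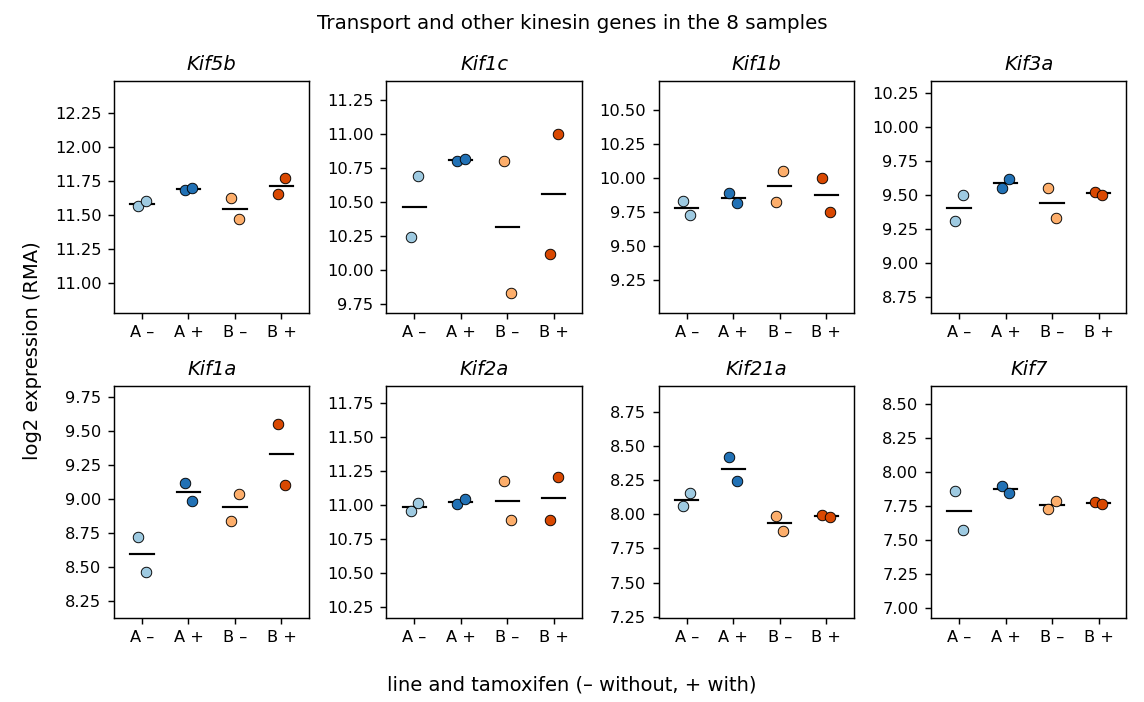
Log2 expression (y axis, RMA, the same span in each panel) of 5 transport genes (Kif5b, Kif1c, Kif1b, Kif3a, Kif1a), 2 other genes (Kif2a, Kif21a) and the cilium gene Kif7 in the 8 samples, by line (A, B) and without (–) or with (+) tamoxifen; points are samples and lines group means (n = 2 each). Kif5b is higher in all 4 samples with tamoxifen, and the line B samples of Kif1c range from 9.84 to 11.003.

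Of the cilium and Hedgehog genes, 0 of 6 passed, with differences between -0.15 and 0.24. Kif7, which regulates Hedgehog signalling at the cilium tip, was at 7.86 and 7.57 without and 7.90 and 7.85 with tamoxifen in line A, and 7.72 and 7.79 without and 7.78 and 7.76 with tamoxifen in line B (difference 0.09, SE 0.08). Kif6 was at 7.24 and 7.19 without and 6.93 and 7.21 with tamoxifen in line A, and 7.18 and 7.11 without and 7.24 and 7.39 with tamoxifen in line B, and its difference of 0.01 (SE 0.09) had no settled sign across the alternative fits. Kif9, a motor of motile cilia, had the largest difference of the class, 0.24 (SE 0.07, 95% interval 0.09 to 0.39, limma adjusted p = 0.19). The mean levels of 5 of these 6 genes lay below the median of all genes, and no detection calls were used, so some may not have been detected.

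Of the 8 other genes 0 passed, and the mean levels of 4 of the 8 lay below the median of all genes. Kif2a, a relative of Kif2c that takes apart microtubules in neurons and at spindle poles, was at 10.96 and 11.02 without and 11.01 and 11.04 with tamoxifen in line A, and 11.18 and 10.89 without and 10.89 and 11.20 with tamoxifen in line B. Its groups overlapped, and the difference of 0.03 (SE 0.09, 95% interval -0.17 to 0.22) stood beside the fall of 0.55 in Kif2c. Kif21a, a motor that restrains microtubule growth at the cell cortex, was at 8.06 and 8.15 without and 8.42 and 8.24 with tamoxifen in line A, and 7.99 and 7.87 without and 7.996 and 7.98 with tamoxifen in line B (difference 0.14, SE 0.07). Kif2b, Kif12, Kif21b, Kif26a, Kif26b and Kif4-ps had differences between -0.12 and 0.02. The pseudogene Kif4-ps resembles Kif4 in sequence; whether their probes match both was not analysed here.

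Line by line, 1 kinesin gene passed in line A and 0 in line B. Kif11 fell by 0.70 on the log2 scale in line A (SE 0.11, limma adjusted p = 0.045), where 0.502% of all genes passed and 0.1% were lower. Its difference in line B was -0.40 (SE 0.11, adjusted p = 0.65), where 0.0201% of all genes passed. At an unadjusted p under 0.05 in limma, 10 mitotic genes were lower in line A and 6 in line B, beside 3.11% and 2.37% of all genes. The mitotic medians were -0.56 in line A and -0.36 in line B, and those of the transport genes 0.09 and 0.05.

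The count in line A was 0 without line A PKM2 replicate 1, without line A PKM2 replicate 2, without line A PKM1 replicate 1 and without line A PKM1 replicate 2. It was 2 when either line B PKM2 array was left out, replicate 1 or 2, and 4 when either line B PKM1 array was, replicate 1 or 2. Over all genes, the fits without a line A array called between 0 and 6 genes, and those without a line B array 107 or 143, against 100 with all arrays. With the line A samples fitted alone, 9 kinesin genes passed, all of them mitotic, where 2.72% of all genes passed. In line B it was 0 in all alternative fits run.

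All 11 mitotic genes had the larger change in line A, as did 56.1% of all genes, but 0 of 38 kinesin genes passed when the difference itself was tested in limma, where 0% of all genes passed, with 0 of 38 at an unadjusted p under 0.05 and 2.83% of all genes at that level. The difference, line B minus line A, was 0.30 for Kif11 (95% interval -0.06 to 0.67) and 0.0049 for Kif2c, and the largest among the mitotic genes was 0.34 for Kif15. The plot of line A against line B changes shows the mitotic genes together in the lower left.

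**Figure D5:**
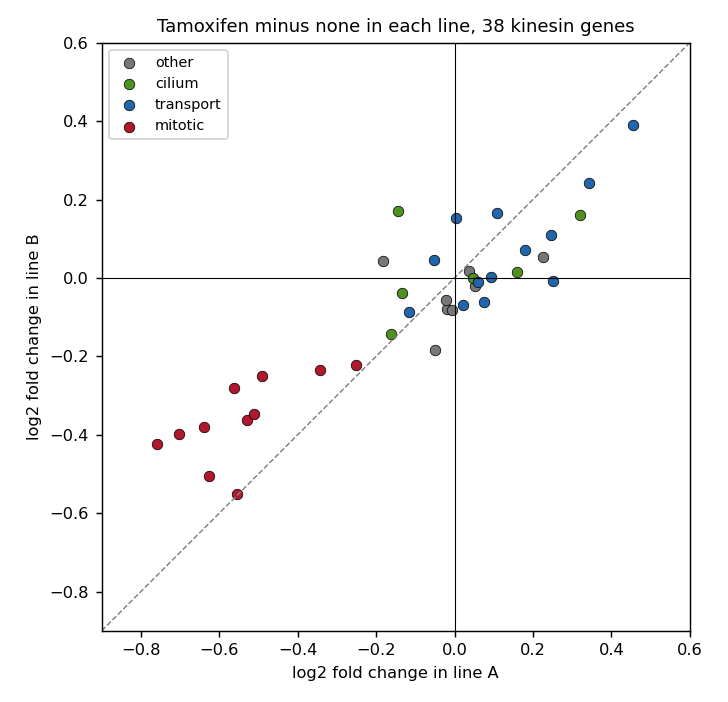
Log2 fold change with tamoxifen of the 38 kinesin genes in line A (x axis) and line B (y axis), coloured by class, with equal change in both lines dashed. All 11 mitotic genes lie below 0 in both lines and above the dashed line, from -0.76 to -0.25 in line A and from -0.55 to -0.22 in line B.

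Between the lines without tamoxifen, 0 of 38 kinesin genes passed in limma, where 0.326% of all genes passed, and 2 had an unadjusted p under 0.05, beside 5.2% of all genes. The smallest p-values belonged to Kif5c, lower in line B by -0.28 (SE 0.10, adjusted p = 0.69), to Kif26b, a kinesin without motor activity known from kidney development, higher by 0.41 (SE 0.14, adjusted p = 0.70), and to Kif1a, higher by 0.34 (SE 0.16, adjusted p = 1.00). The mitotic genes differed between the lines by -0.21 to 0.08, with a median of 0.0045.

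On a list of 27 partners and regulators of the mitotic kinesins, 26 were measured, 11 fell, 0 rose and 15 did not pass, beside 0.512% of all genes called lower. The median change of the list was -0.39, beside -0.01 over all genes. The smallest p-values belonged to Ect2, which activates RhoA for the cleavage furrow (-0.61, SE 0.07), Birc5, a subunit of the chromosomal passenger complex (-0.50, SE 0.07), the cyclin gene Ccnb2 (-0.48, SE 0.07) and the checkpoint kinase gene Bub1b (-0.50, SE 0.08). Racgap1, which pairs with Kif23 in centralspindlin, fell by 0.35 (SE 0.07, limma adjusted p = 0.049), and Prc1, which recruits Kif4, by 0.44 (SE 0.08, limma adjusted p = 0.037). These 2 were named after their values were seen. Members that did not pass included the transcription factor genes Foxm1 (-0.40, SE 0.09) and Mybl2 (-0.07, SE 0.11).

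Mki67 and Ccna2, 2 genes known from dividing cells, fell with tamoxifen. Mki67 was at 10.25 and 10.23 without and 9.30 and 9.35 with tamoxifen in line A, and at 10.10 and 10.12 without and 9.53 and 9.70 with tamoxifen in line B. The difference was -0.70 (SE 0.09, limma adjusted p = 0.0059). Ccna2, the cyclin A2 gene, changed by -0.67 (SE 0.09, limma adjusted p = 0.0073). The part of a changed share of dividing cells in the lower kinesin levels was not tested, and in these bulk samples fewer dividing cells and less RNA per cell cannot be told apart.

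Kinesin superfamily genes outside the rule had 3 of 5 measured, of which 0 passed. Cenpe, the kinesin that carries chromosomes to the spindle equator, was 0.41 lower on the log2 scale in the mean with tamoxifen (difference -0.41, SE 0.10, limma adjusted p = 0.12), and Kifc3 differed by -0.04 (SE 0.08). Of 18 kinesin light chains and cargo adaptors 16 were measured and 0 passed, with a median of 0.03. The smallest p-values there belonged to Fez1, an adaptor of conventional kinesin (0.32, SE 0.10, adjusted p = 0.25 in limma), and Klc3 (-0.08, SE 0.06). Kifap3, the subunit that completes the Kif3a and Kif3b motor, differed by 0.09 (SE 0.08).

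Dynein, the motor that moves toward microtubule minus ends, and its activator dynactin had 22 of 26 listed genes measured and 0 passed, with a median of 0.03. The smallest p-values belonged to Dctn6 (0.24, SE 0.09, limma adjusted p = 0.33) and Dynll2 (0.20, SE 0.08). Pkm, the gene of the design, differed by -0.11 (SE 0.15), and which isoforms its probe set reads was not analysed here. Among the macrophage, epithelial, endothelial and skeletal muscle markers 0 of 27 passed with tamoxifen. Of 6 neural markers 1 fell, Map2 (-0.38, SE 0.07), and of 10 fibroblast markers 2 rose, Lum and Dcn. Their part in the kinesin results was not tested.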

How the data were processed

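RNA of 8 samples, 2 in each of 4 groups set by line and treatment in the titles, was hybridised to Affymetrix arrays. The deposited log2 values were made by RMA in Affymetrix Expression Console, per the labels' design text, which states no version. RMA summarises the probes of a probe set and compresses differences of dim ones. The main results use these values unchanged.

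Of 35556 probe sets, 21789 carry 1 gene symbol in GEO's platform annotation, 1621 several and 12146 are unnamed here; 21698 matched the RefSeq gene table by gene ID, which changed 0 symbols. The brightest probe set stood for a gene. Tests used limma 3.58.1 in R 4.3.3 (lmFit, eBayes), two-sided, with Benjamini-Hochberg adjustment over 19938 genes and a threshold of 0.05. Tamoxifen over both lines was fitted beside a line term (5 residual degrees of freedom), other effects from 4 group means (4 residual degrees of freedom). The fits were tested on simulated data with independent noise for each gene and array. These data lack the shared component within groups described above, so the test does not cover it. Members, classes, lists and motifs were chosen with earlier results of these data known.

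Named with values in every sample were all mitotic kinesins, the 5 brightest transport genes and the 2 brightest of each other class; from each list of partners, up to 4 genes that passed or 2 with the smallest p; and between the lines the 3 smallest p. Racgap1, Prc1, Foxm1, Mybl2 and Kifap3 were named outside these rules. The 4 lists of partners and 6 of cell type markers are described by counts and medians. The number of arrays limits the precision. Alternatives were other scalings, a filter, variance model, array weights, probe set means, no line term, other class members, the groups compared alone and leaving out samples; leaving out pairs of line B arrays was added after seeing the data.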

Additional observations from a re-analysis of the deposited data

How the results depend on the processing

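The kinesin count of 5 over both lines, all of them mitotic genes that were lower, was 5 with arrays shifted to a common median, after quantile normalization again, without the 30% dimmest genes and with a trended robust variance, and 4 with probe sets averaged per gene. Between 1.17% and 1.82% of all genes passed in these fits, against 1.32%. The kinesin count was 12 with array weights (10 of them mitotic and lower, with Kif1a and Kif9 higher) and 3 with no term for the line. There 4.93% and 0.66% of all genes passed. Without either pair of line B arrays, chosen after seeing the data, it was 11 and 10 (10 and 9 mitotic). With either pair left out, each line B group held 1 sample. The spread within line B was then not measured, so the counts without these pairs are listed without a conclusion. The kinesin counts without 1 sample are given above. In line A the count of 1 became 2 after quantile normalization again and 0 with a trended robust variance, where 0.57% and 0.46% of all genes passed. It was 8 with array weights and 9 with the line A samples alone, where 2.63% and 2.72% of all genes passed, against 0.502%. How it changed without 1 sample is given above. Counts of 0 in line B, for the difference between the lines and between the lines without tamoxifen were 0 in the alternatives run. The medians of both classes moved by less than the spread between samples of a group, 0.24 for mitotic and 0.10 for transport genes. This held in all alternatives, also with Kif2a and Kif2b or Kif21a and Kif21b added. For the transport genes it says little, since their median of 0.08 is itself smaller than that spread. Their median lay between 0.04 and 0.11. The cause of these shifts was not tested.

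Over 17 alternatives Kif23 passed in 16, Kif2c in 14, Kif11 in 13, Kif15 in 10 and Kif14 in 9; adjusted p-values reached 0.052, 0.059, 0.097, 0.21 and 0.15 in limma. None of these 5 changed sign. The alternatives include the fits without pairs of line B arrays, in which the line B groups were not replicated. Signs turned for genes with differences near 0. Kif1b was at -0.0166 after quantile normalization again and between -0.0297 and 0.0716 over the alternatives. Kif6 was at -0.0436 with array weights, -0.0043 with the mean of its probe sets, -0.0277 and -0.0520 without the pairs of line B arrays, and between -0.0520 and 0.10 over the alternatives. Kif2a lay between -0.0327 and 0.0914. No paired analysis was possible because the titles number the samples serially over all groups, so no number is shared between groups. The replicate numbers used here follow that order within each group and are not given by the labels.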
